A study of Hordeum vulgare with 12 samples.

Results

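Of the 107 barley genes that the deposited gene table annotates to the kinesin complex or to microtubule motor activity, 52 reached at least 1 FPKM (fragments scaled to gene length and to library size) in at least 3 of the 12 leaf libraries. These 52 genes are described here, out of 17342 genes that passed the same limit and 30157 in the table. Of the 52 members, 42 carried both ontology terms, 9 carried the kinesin complex term without the motor activity term, and 1 carried motor activity alone. The 9 members of the second kind were annotated as plus-end-directed motors.

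The leaves came from Hordeum vulgare accessions BCS8 and BCS24, each as a control (labelled "ck") and under drought, with 3 libraries in each of the 4 groups. The title of the study calls the plants seedlings and names drought-responding genes as its subject. The labels give no age, no length or severity of the drought, and no statement that the 3 libraries of a group came from separate plants, so p-values measure the spread between these samples, which may be technical. Poly(A) RNA was made into dUTP-stranded libraries and sequenced from both ends.

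Kinesins are motor proteins that use ATP to walk along microtubules, carrying cargo or sliding and shortening the filaments. Plants hold large kinesin families, and many members work in the spindle, the preprophase band and the phragmoplast, the microtubule array that builds the new cell wall between daughter cells. Others act outside division, in cell wall deposition, trichome shape or the placing of organelles. Flowering plants such as barley lack the cytoplasmic dynein motor of animals and rely on kinesins for movement towards both microtubule ends.

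Libraries held 49553836 to 61212440 counts, and log2 values correlated at 0.925 to 0.99 within groups and 0.836 to 0.975 between groups. The 35 genes annotated to light harvesting in photosystem I, taken as markers of leaf, summed to between 20000 and 62200 FPKM per library. The 49 genes of root hair elongation, taken as markers of root, summed to between 552 and 710 FPKM, so that list was not silent in leaf. The 5 genes of the MCM complex, the DNA helicase of replicating cells, summed to between 0.0974 and 0.389 FPKM, and none of them passed the limit for testing. Other lists taken as markers of dividing cells were not near 0. The 100 nucleosome genes summed to between 386 and 593 FPKM, and 40 regulators of cyclin-dependent kinases to between 61 and 81.9. Each library is bulk leaf RNA, in which fewer cells of a type and less RNA per cell cannot be told apart. The share of counts in rRNA genes ran from 0.202 to 2.22%. It was 0.918 to 2.22% in BCS8 drought against 0.202 to 0.658% in BCS24 drought, without overlap.

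Most members were low in leaf. The median of their mean levels was 2.37 FPKM, against 6.15 FPKM over all genes tested. Of the members, 5 had a mean of at least 10 FPKM, 10 lay between 5 and 10, 14 between 2 and 5, and 23 below 2. The 5 highest held 36.1% of the members' summed level. The limit of 1 FPKM was reached in every library by 30 members and in exactly 3 libraries by 3 members. Just inside it lay HORVU6Hr1G021300, HORVU2Hr1G108840 and HORVU2Hr1G108010, where the level of the library ranked 3 from the top was 1.01, 1.09 and 1.23 FPKM. Just outside lay HORVU2Hr1G076000 and HORVU7Hr1G034990, at 0.97 and 0.966 FPKM. Summed over members, levels were 215 ± 8.04 FPKM in BCS8 control and 211 ± 6.89 in BCS8 drought (mean ± SD, n = 3 libraries). In BCS24 they were 241 ± 15.9 in control and 221 ± 21.9 under drought, and single libraries ran from 200 to 258 FPKM. The BCS24 control libraries (227, 258 and 237) were above every BCS8 library (204 to 223). BCS24 drought (244, 200 and 220) overlapped with each of the other groups. These sums were not tested.

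**Figure D1:**
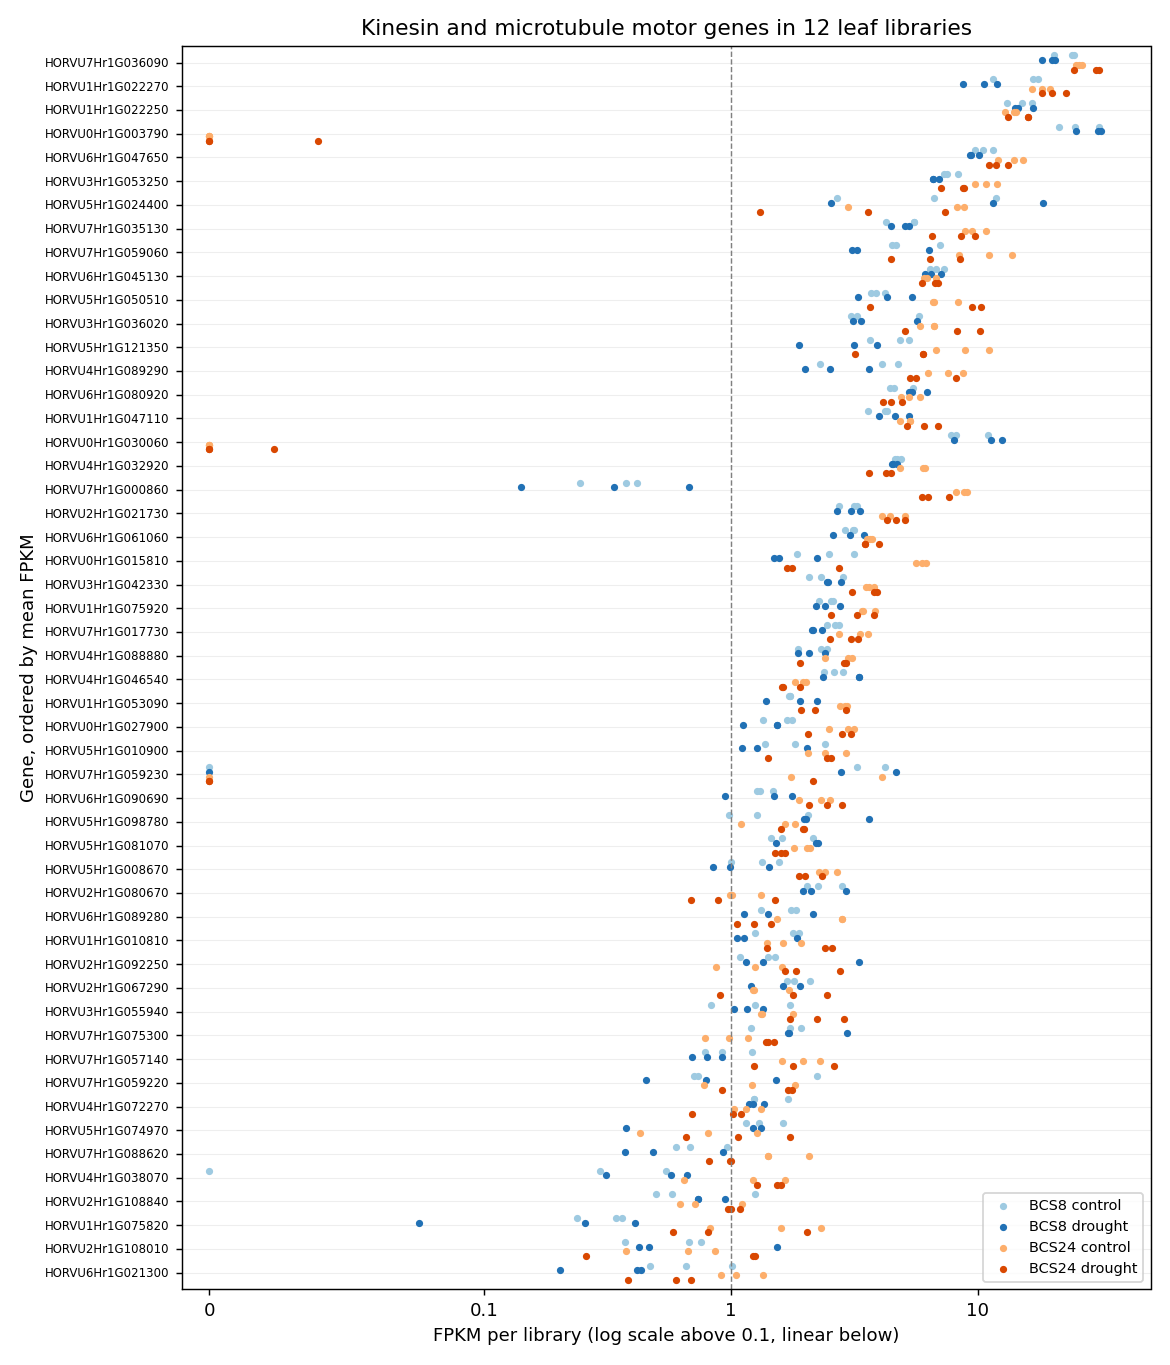
FPKM of the 52 members in each of the 12 libraries, 1 row per gene in order of mean level, with colour for group and a dashed line at 1 FPKM. Levels run from 0 to above 30 FPKM, HORVU0Hr1G003790 and HORVU0Hr1G030060 lie at or near 0 in every BCS24 library, and HORVU7Hr1G000860 lies below 1 FPKM in every BCS8 library.

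The members lay on every chromosome: 10 on 7H, 8 on 5H, 7 each on 1H and 6H, 6 each on 2H and 4H, 4 on 3H, and 4 on sequence not placed on a chromosome (Un). A description was given for 16 members, of which 12 were called kinesin-like and few named a subfamily. An annotation to a motor term did not always stand alone: 12 members also carried an ontology term or an orthology number of another protein, while 40 carried motor terms only. This split was made after values had been seen. The 12 include HORVU7Hr1G036090, which is described as kinesin-like. Its transcript with the orthology number K05310 held on average 12.1% of its counts in a library.

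The highest member was HORVU7Hr1G036090, on 7H from 82420611 to 82440413. It is described by projection from Arabidopsis as a kinesin-like protein for actin-based chloroplast movement. The description names actin and not microtubules. In BCS8 it stood at 24, 20.3 and 24.4 FPKM in control libraries 1 to 3 and at 20.5, 18.1 and 20 under drought. In BCS24 it stood at 25.6, 26.4 and 25 in control and at 30.8, 24.6 and 30 under drought. All BCS24 drought libraries were above all BCS8 drought libraries, with a log2 fold change of 0.61 ± 0.12 (± SE, edgeR adjusted p = 0.00639, n = 3 per group), and in control the difference was 0.15 ± 0.12 (edgeR adjusted p = 0.4). The drought effect was −0.19 ± 0.12 in BCS8 and 0.28 ± 0.12 in BCS24, and the difference between these effects, 0.46 ± 0.17, did not pass (edgeR adjusted p = 0.296). With rRNA share as a covariate the difference between the accessions under drought was 0.51 and no longer passed (edgeR adjusted p = 0.0825).

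HORVU1Hr1G022270 and HORVU1Hr1G022250, the next 2 by mean level, are neighbours among the annotated motor genes of 1H, 143754 bases apart on opposite strands. HORVU1Hr1G022250 (93523391 to 93554521) lay between 12.9 and 16.7 FPKM in all 12 libraries and passed in no comparison. HORVU1Hr1G022270 (93698275 to 93699101) stood at 16.7, 11.5 and 17.5 FPKM in BCS8 control and at 11.9, 10.6 and 8.7 in BCS8 drought. In BCS24 it stood at 18.2, 19.6 and 16.6 in control and at 22.8, 19.9 and 18.1 under drought. Under drought the accessions did not overlap, and BCS24 was higher by 1.02 ± 0.19 on the log2 scale (edgeR adjusted p = 0.00538). In control they overlapped (0.24 ± 0.19, edgeR adjusted p = 0.405), and the difference of the drought effects was 0.79 ± 0.27 with an edgeR adjusted p of 0.267. With rRNA share as a covariate the difference under drought was 1.05 and no longer passed (edgeR adjusted p = 0.0529).

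A response to drought was seen in 1 member. In BCS8, 0 of 52 members passed an edgeR adjusted p of 0.05, beside 1.53% of all genes tested (0.998% higher and 0.536% lower). An unadjusted p under 0.05 was reached by 4 members there, 7.69% of them beside 16.3% of all genes. DESeq2 called 0 members in BCS8, beside 6.82% of all genes. In BCS24 1 member fell and 0 rose, beside 2.65% of all genes called in either direction, 1.4% higher and 1.25% lower. An unadjusted p under 0.05 was reached by 10 members, 19.2% beside 20.6% of all genes. For the mean of both drought effects 1 member fell and 0 rose, beside 6.87% of all genes, 4% higher and 2.87% lower. The median log2 fold change over the members was 0 in BCS8 and 0.01 in BCS24, against 0.02 and 0 over all genes tested. The difference of the drought effects passed for 0 members, beside 0% of all genes by edgeR, with 4 members at an unadjusted p under 0.05 (7.69% beside 12.5% of all genes). DESeq2 also called 0 members for that difference, among 629 genes that it called (3.63% of all genes tested).

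The member that fell was HORVU0Hr1G015810, which carries motor terms and no description and lies on unplaced sequence (Un, 85473231 to 85481023). In BCS24 it stood at 6.17, 5.62 and 5.96 FPKM in control and at 1.76, 1.69 and 2.74 under drought. In BCS8 it stood at 2.49, 1.86 and 3.16 in control and at 1.57, 1.49 and 2.23 under drought. The BCS24 control libraries were the highest of all and overlapped with no other group, whereas the BCS8 groups overlapped with each other and with BCS24 drought. The fall in BCS24 was 2.6-fold (log2 fold change −1.38 ± 0.26, edgeR adjusted p = 0.0311). In BCS8 the change was −0.46 ± 0.26 (edgeR adjusted p = 0.413), and the 2 effects differed by −0.92 ± 0.37, which did not pass (edgeR adjusted p = 0.339). The mean effect over both accessions was −0.92 ± 0.18 (edgeR adjusted p = 0.0174).

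That fall in BCS24 kept its direction in all 22 alternative settings and was past the threshold in 15 of them. The call was lost with rRNA share as a covariate, without control library 1 of BCS8, without any 1 of the control libraries of BCS24, and without drought library 1 or 2 of BCS24. Over these settings the log2 fold change ran from −1.65 to −1.19. The mean effect stayed past the threshold in all 21 settings. The gene has 38 annotated transcripts, the most of any member, and the transcript with the most counts was a different one in each of the 4 groups, so these counts do not assign the fall to 1 transcript.

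**Figure D2:**
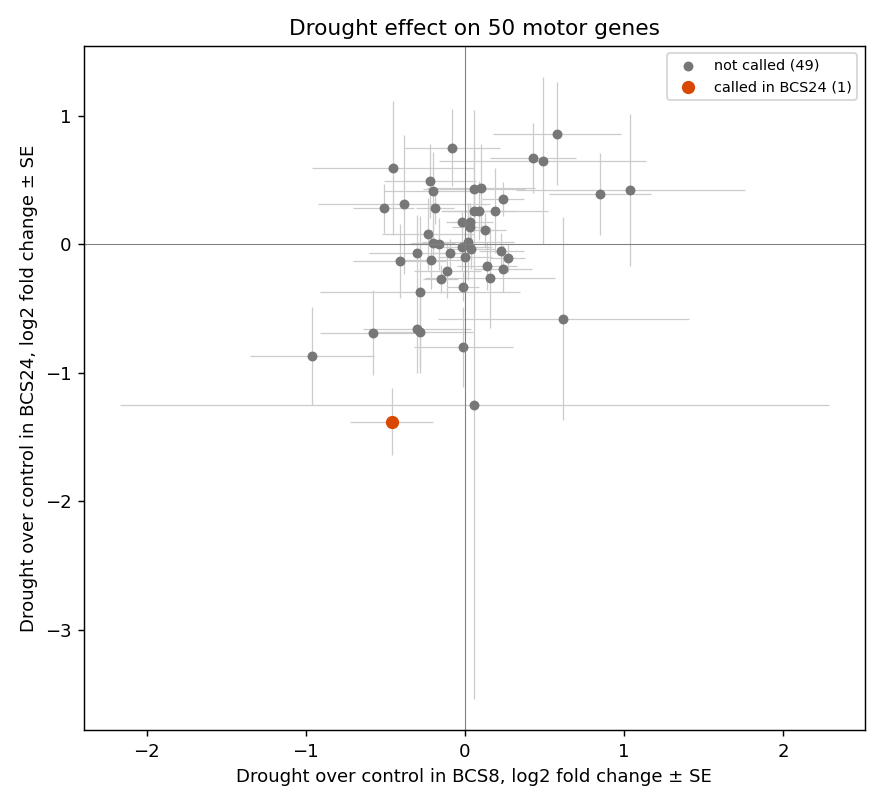
Log2 fold change of drought over control in BCS8 (x axis) and in BCS24 (y axis) for 50 members, with SE as bars. HORVU0Hr1G015810, the member called in BCS24, lies at −0.46 and −1.38, and the others gather around 0 on both axes, with wide bars for HORVU7Hr1G059230. HORVU0Hr1G003790 and HORVU0Hr1G030060, at or near 0 counts in BCS24, are left out.

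Members that did not pass in the drought comparisons but did so under another tool were few. HORVU4Hr1G032920 was at −0.33 ± 0.11 in BCS24 (edgeR adjusted p = 0.113), and DESeq2 gave −0.34 ± 0.12 (adjusted p = 0.0385). HORVU6Hr1G021300, among the lowest members, had a mean drought effect of −0.91 ± 0.27 (edgeR adjusted p = 0.0704), which passed with DESeq2 (adjusted p = 0.0465). HORVU1Hr1G047110 had a mean effect of 0.3 ± 0.09 (edgeR adjusted p = 0.0847) and passed with DESeq2 (adjusted p = 0.0392). These 3 genes were named after their values had been seen.

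The accessions differed in more members than the treatments did. The same held over all genes tested, of which drought called 1.53% in BCS8 and 2.65% in BCS24. In control, 19 members were called, 15 higher and 4 lower in BCS24 than in BCS8, beside 19.1% of all genes, 9.98% higher and 9.15% lower. As shares of the members these are 28.8% higher and 7.69% lower. Under drought, 24 members were called, beside 27.4% of all genes. Of them 20 were higher and 4 lower, or 38.5% and 7.69% of the members, beside 13.3% and 14.1% of all genes. No library is shared by the control and drought comparisons, although both come from 1 fit. In both, 12 members were called higher and 4 lower, 3 were called higher in control alone, and 8 were called higher under drought alone. Whether these 11 members differed in their accession effect is the same test as the difference of the drought effects, and 0 of them passed it.

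The log2 fold change of BCS24 over BCS8 was above 0 for 39 of 52 members in control and for 39 of 52 under drought, 75% in each, beside 48.8% and 48.6% of all genes tested. The median over members was 0.31 in control and 0.42 under drought, against −0.01 and −0.02 over all genes. It was 0.31 in control also with 2 members at 0 counts set to their bound. Among the 40 members with motor terms only, 33 were above 0 in each comparison, with medians of 0.43 and 0.52. Among the 12 that also carried another annotation, 6 were above 0 in each, with medians of 0.02 and −0.1. The limit of 1 FPKM was reached in no BCS8 library by 4 members, all among the 40. It was reached in no BCS24 library by 2, both among the 12. The contrast between the 40 and the 12 includes these 6 and is a description. They entered through the accession where they are high, and their direction was fixed by that limit. Among the 41 members that reached it in at least 3 libraries of each accession, a subset taken after values had been seen, 30 were above 0 in each comparison (73.2%, beside 48.7% and 49.6% of 15109 genes under the same limit). Of these 41 members, 11 were called higher and 2 lower in control, and 17 and 2 under drought, which is 31.7% and 46.3% called beside 17% and 24.3% of those genes. Of the 27 members called in either comparison, 12 differed by at least 2-fold in 1 of them.

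These counts moved with single libraries and with rRNA share, and so did the share of all genes called. The 19 members called in control became 5 without BCS8 control 2, or 9.62% of members beside 9.75% of all genes, and 6 without BCS8 control 3, or 11.5% beside 10.3%. In these settings the members were close to the background. Without BCS24 control 2 and without BCS24 control 3 they were 6 each, 11.5% beside 8.08% and 8.21% of all genes. The 24 called under drought became 10 without BCS24 drought 1 (19.2% of members beside 11.7% of all genes), 14 without BCS8 drought 2 (26.9% beside 14.8%) and 15 without BCS24 drought 3 (28.8% beside 17.9%). With rRNA share as a covariate they were 8 in control and 5 under drought, 15.4% and 9.62% of members beside 12.3% and 8.68% of all genes. With only the compared groups in the fit they were 22 and 8, 42.3% and 15.4% beside 24% and 10.7%. The part of rRNA share in the result was not tested further. With the replicate number as a block, 21 were called under drought, and HORVU1Hr1G075920, HORVU3Hr1G053250 and HORVU6Hr1G061060 were lost (edgeR adjusted p = 0.0754, 0.0578 and 0.0517). The values printed for the accessions are from the fit without the block.

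**Figure D3:**
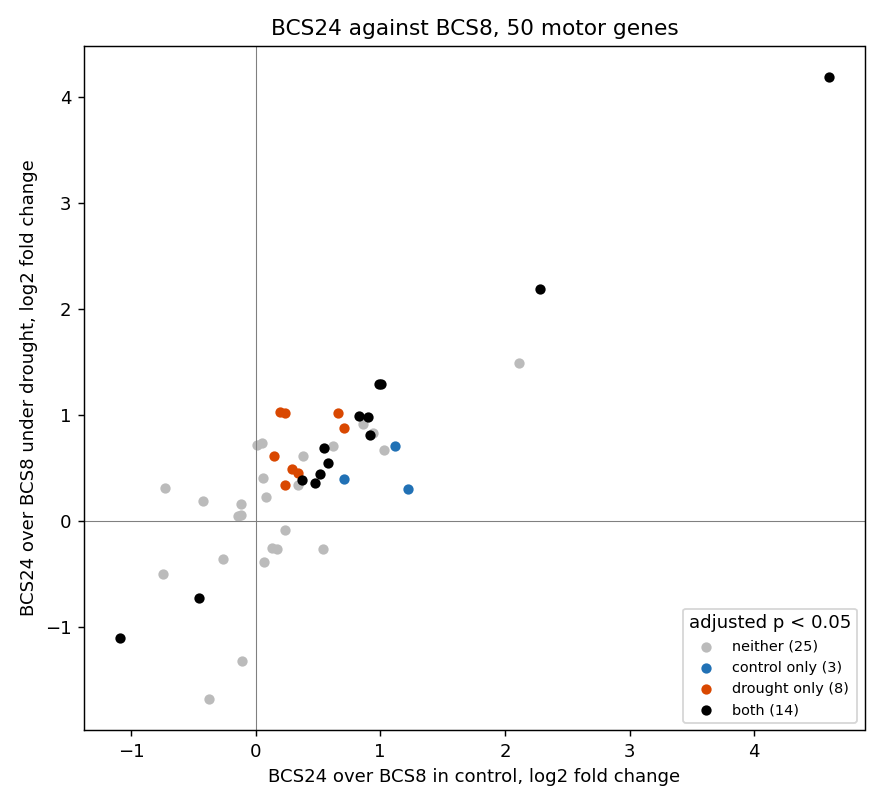
Log2 fold change of BCS24 over BCS8 in control (x axis) and under drought (y axis) for 50 members, coloured by the comparison in which edgeR called them. Of these, 14 were called in both and 25 in neither, and HORVU7Hr1G000860 lies farthest to the upper right at 4.6 and 4.19. HORVU0Hr1G003790 and HORVU0Hr1G030060, at 0 counts in BCS24 control, are left out.

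HORVU7Hr1G000860 showed the highest fold among the members higher in BCS24, and is 1 of the 4 that reached 1 FPKM in no BCS8 library, so its direction was set by the limit for testing and its fold is a description. It carries motor terms, has no description, and lies near the start of 7H (1776539 to 1784614). In BCS8 it stood at 0.416, 0.246 and 0.377 FPKM in control and at 0.337, 0.674 and 0.141 under drought. In BCS24 it stood at 8.13, 9.06 and 8.75 in control and at 7.66, 5.95 and 6.31 under drought. Every BCS24 library was above every BCS8 library, by 24.2-fold in control (4.6 ± 0.46, edgeR adjusted p = 9.79e-05) and by 18.2-fold under drought (4.19 ± 0.45, edgeR adjusted p = 0.000162). The call held in all 22 settings of each comparison. Because the gene entered through BCS24 alone, neither these p-values nor the settings are support for its direction. Among its 23 transcripts, HORVU7Hr1G000860.1 (21 exons, 5218 bases) held between 39.9 and 99.2% of the counts in the BCS8 libraries, which had 59 to 230 counts of the gene each. In the BCS24 libraries the same transcript held between 4.94 and 30.8%, and this difference was not tested. It overlaps HORVU7Hr1G000870, on the opposite strand, by 1325 bases.

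HORVU7Hr1G035130 (7H, 75903147 to 75908854) was also higher in BCS24 in every library, and carries motor terms only. In BCS8 it stood at 5.51, 5.53 and 4.24 FPKM in control and at 5.06, 4.43 and 5.28 under drought. In BCS24 it stood at 8.9, 10.8 and 9.46 in control and at 8.56, 6.5 and 9.72 under drought. The accessions did not overlap in either treatment. The log2 fold changes were 0.92 ± 0.17 in control (edgeR adjusted p = 0.00519) and 0.81 ± 0.17 under drought (edgeR adjusted p = 0.00784), and the second was lost in 1 of 22 settings.

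HORVU4Hr1G089290 is among the members that also carry an orthology number of another protein, K01062. Its transcripts HORVU4Hr1G089290.1 and HORVU4Hr1G089290.7, both with that number, held on average 86.6% and 10.3% of its counts in a library. The gene spans 642148545 to 642316692 on 4H and overlaps 6 other annotated genes. One of them, HORVU4Hr1G089310, lies on the same strand over 121053 bases and held 80463 counts, so reads of the 2 genes may not have been told apart. It stood at 4.73, 2.3 and 4.11 FPKM in BCS8 control and at 6.31, 8.72 and 7.59 in BCS24 control. Under drought it stood at 3.62, 2.51 and 1.99 in BCS8 and at 8.12, 5.62 and 5.3 in BCS24. BCS24 was above BCS8 in both treatments without overlap, by 1.01 ± 0.29 in control (edgeR adjusted p = 0.0371) and by 1.29 ± 0.29 under drought (edgeR adjusted p = 0.0117).

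The kinesin named after a subfamily, HORVU1Hr1G053090 (1H, 392575215 to 392598535), is described as KIN-7N by projection from Arabidopsis. It stood at 1.74, 1.73 and 1.72 FPKM in BCS8 control and at 2.96, 2.89 and 2.76 in BCS24 control, with no overlap. The difference was 0.71 ± 0.19 (edgeR adjusted p = 0.0257). Under drought it stood at 1.91, 2.24 and 1.39 in BCS8 and at 2.92, 2.19 and 1.92 in BCS24. There the accessions overlapped (0.4 ± 0.19, edgeR adjusted p = 0.128). The call in control was lost in 7 of 21 settings.

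HORVU2Hr1G108840 (2H, 715153411 to 715164148) is described as ZWICHEL, a calmodulin-binding kinesin that shapes trichome branches in Arabidopsis. It was close to the lower limit, at 0.498, 1.25 and 0.58 FPKM in BCS8 control and 0.948, 0.734 and 0.733 in BCS8 drought. In BCS24 it stood at 0.718, 1.11 and 0.625 in control and at 1.09, 1 and 0.969 under drought. All 4 groups spanned like values except that BCS24 drought lay above BCS8 drought, and the gene passed in no comparison.

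Further members were higher in BCS24 in both treatments. HORVU0Hr1G027900 was higher by 0.83 ± 0.2 in control and 0.99 ± 0.2 under drought. HORVU5Hr1G008670 was higher by 0.9 ± 0.23 and 0.98 ± 0.23, and HORVU7Hr1G057140 by 0.99 ± 0.29 and 1.29 ± 0.29. All 3 had no overlap between the accessions in either treatment. HORVU7Hr1G057140 reached 1 FPKM in 1 BCS8 library and 6 BCS24 libraries. It thus entered through the accession where it is high, and its difference is a description. HORVU3Hr1G042330, described as kinesin-like, was higher by 0.58 ± 0.13 and 0.55 ± 0.13, and HORVU2Hr1G021730 by 0.55 ± 0.15 and 0.69 ± 0.15. HORVU3Hr1G053250 was higher by 0.48 ± 0.11 and 0.36 ± 0.11, with the call under drought lost in 13 of 22 settings. HORVU6Hr1G047650, among the 5 highest members by mean level, differed by 0.37 ± 0.11 and 0.39 ± 0.11, and its call in control was lost in 12 of 22 settings. That gene also carries the orthology number of the heat shock protein Hsp70, a chaperone, on a transcript with on average 0.11% of its counts. HORVU1Hr1G075820, named after its values had been seen, had the second highest fold (2.28 ± 0.63 and 2.19 ± 0.63) on 5 to 156 counts a library, and its call was lost in 6 of 21 settings of each comparison. It reached 1 FPKM in exactly 3 libraries, all of BCS24, so its direction too was set by the limit.

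**Figure D4:**
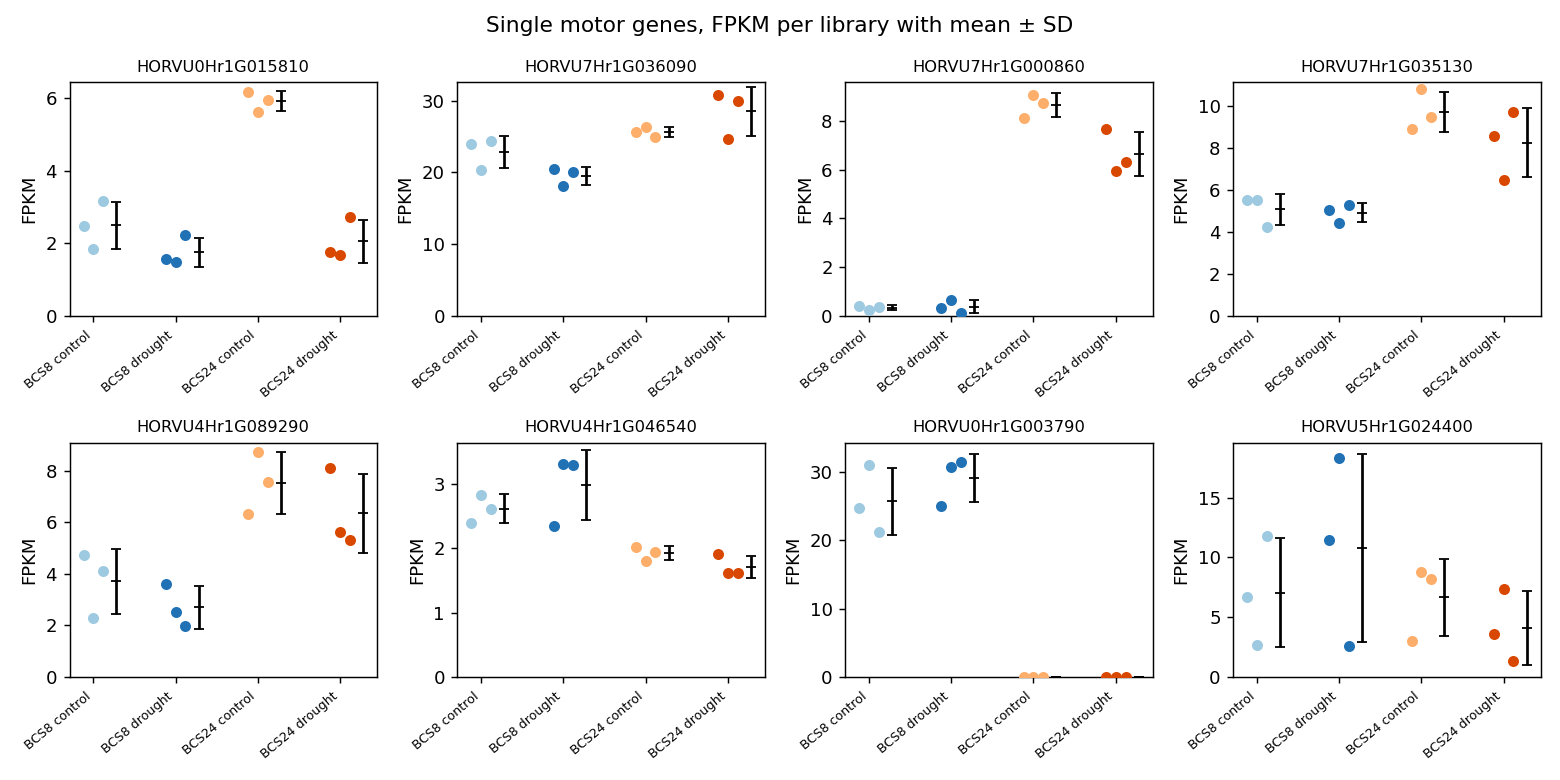
FPKM per library of 8 members in the 4 groups, with mean ± SD (n = 3 libraries) beside the points and each axis starting at 0. BCS24 control stands apart from the other groups for HORVU0Hr1G015810, both BCS24 groups are high for HORVU7Hr1G000860 and at or near 0 for HORVU0Hr1G003790, and HORVU5Hr1G024400 scatters within every group.

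Of the 4 members lower in BCS24, 2 were at or near 0 counts there and entered through BCS8 alone, which set their direction. HORVU0Hr1G003790, on unplaced sequence (Un, 17239461 to 17242886), was the fourth member by mean level. It stood at 24.8, 31 and 21.3 FPKM in BCS8 control and at 25, 30.7 and 31.5 in BCS8 drought, which was 1289 to 2020 counts a library. It had 0 counts in every BCS24 control library and 0, 0 and 3 counts in the drought libraries. HORVU0Hr1G030060 (Un, 168307579 to 168311002) stood at 8.13, 11 and 7.75 FPKM in BCS8 control and at 8, 11.3 and 12.5 in BCS8 drought, with 0 counts in BCS24 control and 0, 0 and 2 in BCS24 drought.

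Against a floor of 3 counts in each library, HORVU0Hr1G003790 was at least 497-fold lower in BCS24 control (edgeR adjusted p = 1.16e-05) and HORVU0Hr1G030060 at least 157-fold lower (edgeR adjusted p = 3.49e-05). As both entered through BCS8 alone, these p-values are no support for the direction, and the folds are a description. Under drought the summed counts of the first were 5072 in BCS8 and 3 in BCS24, a ratio of 1670 after scaling by library size (95% Clopper-Pearson interval 572 to 8120, counting error only). For the second they were 1671 and 2, a ratio of 827 (229 to 6830). In the 6 BCS8 libraries the counts of the first were 2.81 to 3.47 times those of the second. Whether the 2 genes share reads was not tested. An orthology number of a protein of the large ribosomal subunit, L37e, also stands on a transcript of each. These transcripts held on average 0.194% of the counts of the first gene and 0.196% of those of the second. Neither member is described as a kinesin.

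The other 2 members lower in BCS24 were measured in both accessions. HORVU2Hr1G080670 (2H, 584980714 to 584985992) is the member with the motor activity term alone and is typed as a non-translating coding sequence. It stood at 2.82, 2.03 and 2.26 FPKM in BCS8 control, 1.96, 2.92 and 2.12 in BCS8 drought, 1.01, 0.99 and 1.33 in BCS24 control, and 0.692, 1.51 and 0.884 in BCS24 drought. The accessions did not overlap, with differences of −1.09 ± 0.3 in control (edgeR adjusted p = 0.0305) and −1.1 ± 0.3 under drought (edgeR adjusted p = 0.0236).

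HORVU4Hr1G046540 (4H, 371337535 to 371352648) is described as a cell cycle checkpoint control protein by projection from Arabidopsis. It stood at 2.39, 2.84 and 2.61 FPKM in BCS8 control and 2.02, 1.81 and 1.95 in BCS24 control. Under drought it stood at 2.35, 3.31 and 3.3 in BCS8 and at 1.91, 1.61 and 1.62 in BCS24. BCS24 was below BCS8 without overlap in both, by −0.73 ± 0.14 under drought (edgeR adjusted p = 0.00499), and by −0.45 ± 0.14 in control (edgeR adjusted p = 0.0433), where 12 of 21 settings lost the call.

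Among the members, 1 pair overlaps each other. HORVU7Hr1G059220 (7H, 264054066 to 264061164) and HORVU7Hr1G059230 (264054465 to 264057015) lie on opposite strands and share 2551 bases, the whole length of the second. HORVU7Hr1G059230 had 0 counts in 5 libraries, at least 1 in each group, and 216 to 646 in the other 7. HORVU7Hr1G059220 had 543 to 797 counts in the 5 libraries where its partner had 0, and 195 to 468 in the other 7. Their sum lay between 543 and 902 in every library, so the counts of the 2 genes were split differently from library to library. Summed, the pair passed in no comparison: its drought effect was −0.2 ± 0.14 in BCS8 (edgeR adjusted p = 0.519) and −0.05 ± 0.14 in BCS24 (edgeR adjusted p = 0.883). How the authors' counting used strand is not given in the sources used here.

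**Figure D5:**
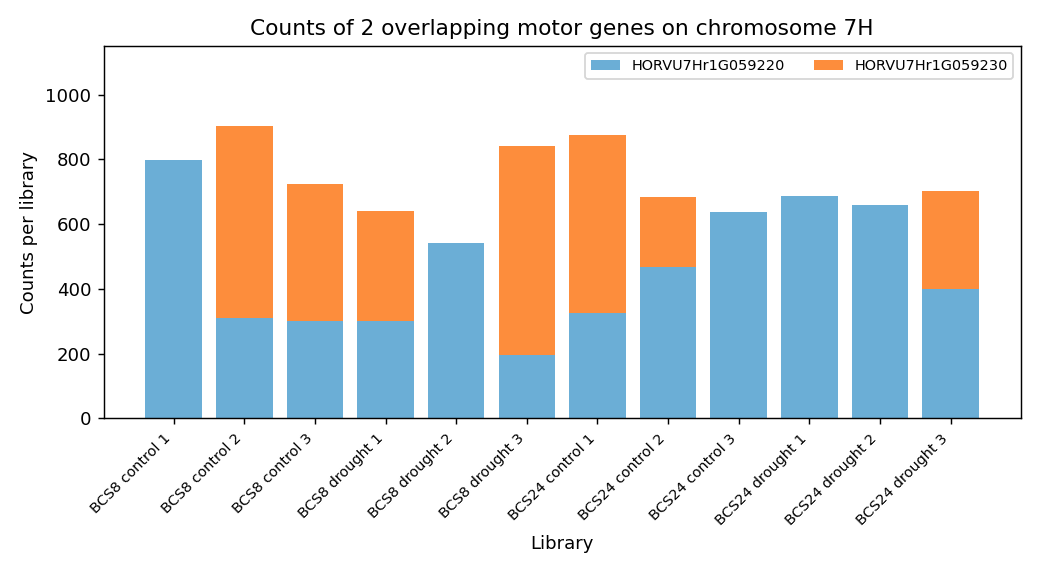
Counts of HORVU7Hr1G059220 and HORVU7Hr1G059230 stacked for each of the 12 libraries. The second gene is at 0 in 5 libraries, where the first is at 543 or more, and the height of the stack stays between 543 and 902.

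HORVU5Hr1G024400 (5H, 131279134 to 131284251) varied widely within groups. It stood at 6.67, 2.68 and 11.8 FPKM in BCS8 control, 11.5, 18.3 and 2.54 in BCS8 drought, 2.98, 8.77 and 8.2 in BCS24 control, and 3.58, 7.39 and 1.31 in BCS24 drought. High and low libraries occurred in every group, and it passed in no comparison. It overlaps HORVU5Hr1G024390, on the opposite strand, by 4203 bases. Both this gene and the 7H pair were named after their values had been seen.

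Transcripts varied more than genes. The members had 578 annotated transcripts, 1 to 38 each with a median of 8.5, and 7 members had 1. Of the 45 with several, the transcript with the most counts was the same in each group for 23 and differed for 22. The chloroplast movement member HORVU7Hr1G036090 was among the latter: the share of HORVU7Hr1G036090.1 ran from 0 to 68.1% over the libraries and that of HORVU7Hr1G036090.5 from 0 to 71.8%. For HORVU7Hr1G036090.1 shares of 0 and above 50% both occurred among the 3 libraries of BCS24 control, so its shares were not compared between groups.

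Other genes of the microtubule system were drawn by ontology term, with the members taken out. Over all genes tested, 1.53% were called for drought in BCS8 and 2.65% in BCS24. Of 55 genes annotated to microtubule binding and tested, 0 were called in BCS8 under drought, and 1 rose in BCS24. It was HORVU4Hr1G063270, by 1.5 ± 0.24 (edgeR adjusted p = 0.0177). Of 41 genes for structural parts of the cytoskeleton, 0 were called in BCS8, while in BCS24 1 rose and 2 fell. The one that rose, HORVU3Hr1G078940, is a beta-tubulin, a building block of microtubules (0.81 ± 0.16, edgeR adjusted p = 0.0331). HORVU3Hr1G083380 fell by 0.98 ± 0.18 and HORVU3Hr1G083370 fell by 0.93 ± 0.18 (edgeR adjusted p = 0.0282 and 0.0325). The same beta-tubulin was the 1 gene called among 51 annotated to the microtubule.

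No gene was called in the drought comparison of BCS8 or of BCS24 in the lists of cell division, beside 1.53% and 2.65% of all genes tested. In lists of this size 0 calls are close to those shares. These held 38 tested genes for the spindle, 69 for the phragmoplast, 19 for the preprophase band, 25 for cytokinesis by cell plate formation, 10 for the kinetochore, 16 regulators of cyclin-dependent kinases, 33 of the nucleosome and 11 of sister chromatid cohesion. When the drought effect was averaged over BCS8 and BCS24, 3 of their genes were called, beside 6.87% of all genes tested. HORVU5Hr1G024180, in the spindle, phragmoplast and preprophase band lists, fell by 0.41 ± 0.11 (edgeR adjusted p = 0.0468), and HORVU2Hr1G011610 of the phragmoplast list rose by 0.81 ± 0.2 (edgeR adjusted p = 0.036). In the cytokinesis list HORVU1Hr1G001890, described as tubulin-folding cofactor E, fell by 0.58 ± 0.13 (edgeR adjusted p = 0.0236). DNA replication initiation had 2 tested genes and condensin had 0. Of 9 genes of the myosin complex, the motors that walk on actin, HORVU2Hr1G040730 fell by 0.58 ± 0.12 in BCS24 (edgeR adjusted p = 0.0412). Of 31 genes of cellulose biosynthesis, HORVU3Hr1G085830 fell by 1.29 ± 0.26 in BCS8 (edgeR adjusted p = 0.0433) and the cellulose synthase HORVU5Hr1G110000 rose by 1 ± 0.19 in BCS24 (edgeR adjusted p = 0.0291).

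Between the accessions the same lists held more calls, as did all genes, of which 19.1% were called in control and 27.4% under drought. Of the 55 microtubule binding genes, 15 were higher and 2 lower in BCS24 in control, and 22 were higher and 3 lower under drought, with median log2 fold changes of 0.18 and 0.35. Together that is 30.9% and 45.5% of the list. Of the 69 phragmoplast genes, 11 were higher and 7 lower in control, and 15 higher and 6 lower under drought, or 26.1% and 30.4% called. For the 11 cohesion genes the counts were 5 and 0, then 6 and 0, with medians of 0.38 and 0.37. For the 25 cytokinesis genes they were 6 and 0, then 10 and 2, and for the 19 preprophase band genes 4 and 0, then 6 and 0. For the 38 spindle genes they were 5 and 2, then 9 and 2, and for the 10 kinetochore genes 1 and 0, then 2 and 0. Among the 33 nucleosome genes 2 were higher and 4 lower in control, and 3 higher and 7 lower under drought. For cytoskeleton structure they were 4 and 3, then 7 and 1, for the microtubule 6 and 5, then 11 and 3, for the myosin complex 3 and 0 in both, and for cellulose biosynthesis 4 and 6, then 8 and 1. In control 17.1 to 24% of the genes were called in the cytoskeleton, microtubule, spindle, preprophase band, cytokinesis and nucleosome lists and 10% in the kinetochore list, near or below the share of all genes. Many genes belong to several of these lists.

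Summed levels of some cell type markers differed between the accessions. The 40 annotated regulators of cyclin-dependent kinases summed to 61 to 67.2 FPKM in the BCS8 libraries and to 71.5 to 81.9 in the BCS24 libraries. Of the 16 tested, 4 were higher and 0 lower in control and 3 and 0 under drought, 25% and 18.8% called beside 19.1% and 27.4% of all genes. The 27 genes of wax biosynthesis, an epidermal product, summed to 125 to 148 FPKM in BCS8 and 170 to 210 in BCS24, with 6 of 17 tested genes higher and 1 lower in control and 8 and 0 under drought, 41.2% and 47.1% called. The 35 genes of light harvesting in photosystem I summed to 20000 to 28500 FPKM in BCS8 control and 33100 to 43300 in BCS24 control, with 13 of 34 tested genes higher (38.2%). Under drought they summed to 24000 to 37700 and 38100 to 62200, with 2 higher (5.88%, below the share of all genes). Other markers went the other way. The 100 nucleosome genes summed to 487 to 513 FPKM in BCS8 drought and to 386 to 475 in BCS24 drought, and overlapped in control. The 1 gene annotated to light harvesting outside photosystem I stood at 64.5 to 86 FPKM in BCS8 control and 24.5 to 50.8 in BCS24 control. Under drought it stood at 47.1 to 64 and 9.32 to 43.1, and it was not called. The part of these cell types in the members' differences was not tested.

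Between the accessions 19.1% of all genes were called in control and 27.4% under drought. Among the other markers, the 9 genes of carbon fixation summed to 2360 to 4380 FPKM over all libraries. Of 8 tested, 1 was called, higher in BCS24 under drought (12.5%, below the share of all genes). Of 21 tested genes of cuticle development, 3 were higher in BCS24 in control and 8 under drought, and 0 were lower in either (14.3% and 38.1% called). The 1 gene annotated to stomatal complex development stood at 2.13 to 2.63 FPKM in the BCS8 libraries and at 2.73 to 4.33 in the BCS24 libraries, and was called higher in BCS24 under drought by 0.58. Of 39 tested genes of root hair elongation, 6 were higher and 3 lower in control, and 7 and 2 under drought, 23.1% called in each and near the share of all genes. None of the 30157 genes in the deposited table was at 0 counts in all 12 libraries, so the same holds for any list and describes none of them.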

How the data were processed

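The deposited gene table gives whole-number counts and FPKM per library, per the file headers, and a second deposited table gives count and FPKM values per transcript. The submitters' processing notes name StringTie 2.1.6, edgeR and DESeq2 without saying what each did. The aligner, genome build, annotation and counting rule were not given in the sources used here. Coordinates were copied from the deposited table. How reads shared by like or overlapping genes were counted is not known.

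A gene was tested if 3 or more libraries reached 1 FPKM. Counts were scaled by TMM and tested with edgeR 4.0.16 in R 4.3.3 (quasi-likelihood F test, 1 coefficient per group, all 4 groups in 1 fit, 8 residual degrees of freedom). Benjamini-Hochberg adjustment ran over the 17342 genes tested, separately for each of 6 comparisons, with 0.05 as the threshold. The SE of a log2 fold change was that change divided by the root of its F value. FPKM means carry SD over 3 libraries, and levels of different genes were set side by side in FPKM only. A gene at 0 in a group was bounded with 3 counts in each library. The test was checked on simulated counts.

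The members and the lists by ontology term were chosen with earlier results of these data known. Named members were those past the threshold, up to the 12 with the lowest adjusted p per comparison, the 5 highest by mean FPKM, those next to the FPKM limit, and those with a named subfamily. From each list the gene with the lowest p was to be named, and only those past the threshold are named. Others are said to have been named after their values were seen. Alternatives were DESeq2 1.42.0, upper-quartile scaling, limma 3.58.1 on log2(FPKM + 1) and log2(FPKM + 0.1), no filter, a filter of 5 FPKM, rRNA share as a covariate, only the compared groups, each library left out, the replicate number as a block, and, added after seeing the data, the overlapping pair summed.

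The labels do not say what a replicate number marks. Same-numbered libraries deviated together from their group means in all pairs only between BCS8 drought and BCS24 drought (correlations 0.15, 0.337 and 0.225). Between the other groups the correlations ran from −0.469 to 0.276, and libraries of unlike number were not compared. These values therefore cannot settle whether the numbers pair the libraries of that comparison. The block used the replicate number over all 4 groups. All values printed for the comparison under drought come from the planned fit without the block, unless the block is named.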

Additional observations from a re-analysis of the deposited data

How the results depend on the processing

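Under the alternatives no named member called by edgeR changed direction. For drought in BCS8 and for the difference of the drought effects every setting gave 0 members. Over all genes tested the settings called 0 to 6.82% in BCS8 and 0 to 3.63% for the difference. Where few genes were called at all, 0 members is near the share of all genes. For drought in BCS24 the count of 1 became 2 with DESeq2, beside 10.4% of all genes, and 0 with rRNA share as a covariate, beside 0.0865%. It ran from 0 to 1 with single libraries left out, beside 0.11 to 3.89% of all genes. For the mean drought effect the count of 1 became 3 with DESeq2, beside 13.5% of all genes, and 2 with limma on log2(FPKM + 1), beside 8.7%. It ran from 1 to 2 with single libraries left out, beside 2.96 to 6.84% of all genes. In BCS24 against BCS8 the 19 members called in control became 12 without a filter, 23.1% of members beside 10.1% of all genes. They became 8 with a filter of 5 FPKM, which left 19 members to test, or 42.1% beside 21.3%. With rRNA share as a covariate they were 8 (15.4% beside 12.3%). They ran from 5 to 22 with single libraries left out. The 24 called under drought became 11 with a filter of 5 FPKM, 57.9% of the members left to test beside 30% of all genes. They became 5 with rRNA share as a covariate (9.62% beside 8.68%) and 8 with only the compared groups in the fit (15.4% beside 10.7%). With single libraries left out they ran from 10 to 26. The cause was not tested, except that the stricter filter leaves fewer members. With the replicate number as a block the counts were 0 in BCS8, 1 in BCS24, 0 for the difference, 1 for the mean, 14 in control and 21 under drought, and the block moved no count by over 1.5 times. Only the compared groups could not be used for the difference and the mean, which need all 4 groups. The median over members ran from 0.25 to 0.39 in control and from 0.26 to 0.51 under drought, with the lowest value from limma on log2(FPKM + 1). For the difference of the drought effects it was 0.09 and became −0.05 under limma on log2(FPKM + 1) and on log2(FPKM + 0.1). On log2(FPKM + 0.1) the median of all genes for drought in BCS24 moved from 0 to −0.13 and that of the members from 0.01 to −0.12. In BCS24 against BCS8, 37 to 40 members were above 0 under every scaling tried. Calls rest on 3 libraries per group, and errors were wide for members with few counts, such as HORVU2Hr1G108010 (0.49 ± 0.65 for drought in BCS8), where a change of that size was not detectable.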
